A study of Equus caballus with 4 samples.

Results

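The 64 genes described here encode enzymes that build the sugar chains of glycoproteins and glycolipids, 48 of them transferases of galactose, N-acetylglucosamine, N-acetylgalactosamine or fucose and 16 of them sialyltransferases. Membership follows a name rule, which takes every gene whose symbol in the array files begins with B3GNT, B3GALT, B4GALT, ST3GAL, ST6GAL, ST6GALNAC, ST8SIA, GALNT, B4GALNT, FUT or MGAT followed by a number. The rule was chosen with earlier results of these data known. Of the 43603 horse probes on the array 118 carried such a name, and of the 24895 gene and transcript names 64 did.

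Satellite cells, the stem cells of skeletal muscle, had been isolated from the semitendinosus muscle of colts and were differentiating in culture. HMB (beta-hydroxy-beta-methylbutyrate, a product of leucine breakdown) was present for the last 24 h up to day 3 of differentiation in the treated cells, whereas control cells stayed in differentiation medium without it. Treated RNA carried the dye Cy5 and control RNA the dye Cy3 on each of the 4 arrays of a single slide, so a preference of a probe for either dye remains in its ratio. The labels call the arrays biological replicates, but neither they nor the methods say which colts each array holds. The labels give the amount of HMB as 50 µg, where the methods give a molar unit, and a description field names another treatment than the titles do. With 4 arrays, each value carries limited precision.

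Sugar chains are assembled in the Golgi by enzymes that each add a given sugar in a given linkage. GALNT enzymes start mucin-type O-glycans, MGAT enzymes set the branches of N-glycans, galactosyltransferases and N-acetylglucosaminyltransferases lengthen the branches, and fucose and sialic acid are usually added near the end. In muscle, the glycans of alpha-dystroglycan hold the fibre to laminin, and polysialic acid on NCAM marks young myogenic cells.

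A ratio is given on the log2 scale, HMB-treated over control, and a value below 0 means less signal in treated cells. The median signal over local background of an array lay between 3.16 and 3.82 in the control channel and between 4.68 and 5.85 in the HMB channel. A probe was tested where treated cells, or else control cells, gave a signal clear of background on each of the 4 arrays, which 65 of the 118 probes met (55.1%, against 62.8% of all probes). Those probes represent 39 of the 64 genes, and 25 genes were not tested. A gene is represented by its brightest tested probe unless another is named, and the threshold is an adjusted P of 0.05 from limma (Benjamini-Hochberg over all tested probes).

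Of the 39 tested genes 12 passed the threshold (30.8%), where 22.5% of the 15535 tested genes and transcripts did. Without lowess, the smoothing by intensity that the scanner software applies, 9 of 39 passed (23.1%), where 24.7% of all did. The 5 that rose were B3GNT8, ST3GAL4, B4GALT1, B4GALT7 and GALNT12 (12.8%, against 10.9% of all tested genes). The 7 that fell were ST3GAL6, B4GALNT4, GALNT5, B3GNT2, ST8SIA5, B4GALT3 and FUT10 (17.9%, against 11.6%). B4GALNT4 and ST8SIA5 entered the test through control cells alone, the side on which they were high, so the count of falls rests in part on the filter. Where both channels had to be above background, 36 genes were tested and 10 passed (27.8%, against 21.4% of all genes), 5 higher and 5 lower. By probe, 19 of 65 passed (29.2%, against 22.8% of all probes), 8 higher where 11.2% of all probes were and 11 lower where 11.6% were. Of the lower probes 5 were overlapping probes of B4GALT3. The higher ones held 3 of B4GALT1, which share bases with a neighbour, and 1 of B3GNT5 that the filter favoured. The count by probe is therefore not one of independent measurements. Each of the 12 genes had the same sign on all 4 arrays. The other 27 tested genes did not pass. B4GALT1, B4GALT3, B4GALT7, GALNT12, B3GNT5 and ST3GAL6 were picked by the study from these same arrays, so their direction is not independent evidence.

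The median log2 ratio of the tested genes of the set was 0.01 (0.04, -0.04, 0.03 and -0.02 on arrays 1 to 4), beside 0.02 over all tested genes. The normalisation centres the ratios and members went both ways, so a median near 0 does not show that the set was unmoved. With B4GALNT4 set at the bound given further on, the median was again 0.01. The median size of a ratio regardless of sign was 0.18 in the set and 0.15 over all tested genes. Among genes past the threshold it was 0.46 in the set and 0.43 overall. A ratio of the same sign on all 4 arrays was found for 19 of the 39 genes (48.7%) and for 45.9% of all tested genes. Without lowess the median of all tested genes moved from 0.02 to 0.13 and the share of rises among all genes past the threshold from 48.6% to 76.8%. In the set that share moved from 41.7% to 66.7%, and the set's median to 0.07, so the balance of rises and falls is relative to the scaling. Signs of the 12 genes were the same under each scaling tried. Leaving out array 2 left 4 of the 39 genes past the threshold and leaving out array 3 left 5, where 8.95% and 9.56% of all genes passed.

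**Figure D1:**
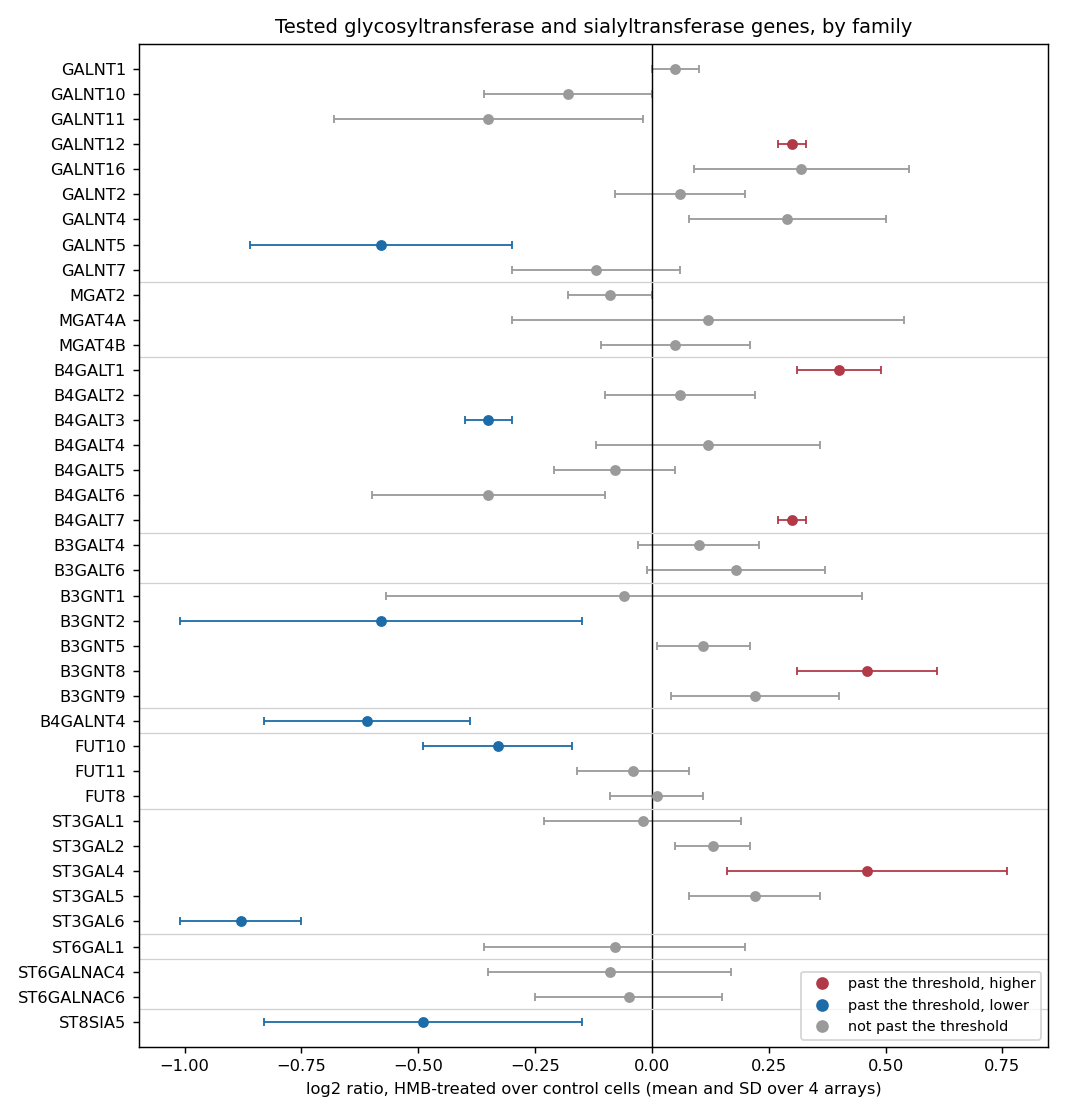
Mean log2 ratio of HMB-treated over control cells for the 39 tested genes, grouped by family, with the SD over 4 arrays as bars. Red points rose (5 genes), blue points fell (7 genes) and grey points did not pass the threshold (27 genes); the lowest value is that of ST3GAL6, -0.88.

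The plot of all tested genes by family shows that 4 of the 11 families held both a rise and a fall, namely GALNT, B4GALT, B3GNT and ST3GAL. B4GALNT, FUT and ST8SIA held 1 gene past the threshold each, and it was lower. In B4GALNT and ST8SIA that gene was the single one tested, and it entered through control cells alone, so the filter favoured the fall. The share of tested genes past the threshold was 22.2% in GALNT, 42.9% in B4GALT, 40.0% in B3GNT, 33.3% in FUT and 33.3% in all sialyltransferases together, each over few genes and to be read beside the 22.5% of all tested genes.

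The GALNT enzymes attach N-acetylgalactosamine to serine or threonine and so start mucin-type O-glycans. Of 16 GALNT genes 9 were tested, 1 rose and 1 fell, and the family median was 0.05. GALNT12 ratios were 0.28, 0.27, 0.31 and 0.34 on arrays 1 to 4, from control signals of 169, 164, 169 and 168 and HMB signals of 205, 197, 209 and 212. Every HMB signal of GALNT12 was above every control signal, and the 4 arrays were close to each other. The mean of 0.30 ± 0.03 (SD, n = 4) is a 1.23-fold rise, higher on 4 of 4 arrays (limma adjusted P 0.0166). Its probe spans 1924 bases of chromosome 25 on EquCab1 (29937675 to 29939598, minus strand), longer than its 60 bases, and therefore crosses an intron.

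GALNT5, another starter of O-glycans, had ratios of -0.28, -0.50, -0.58 and -0.96. Its control signals were 52.5, 61.6, 43.1 and 59.3 and its HMB signals 43.2, 43.6, 28.7 and 30.4. Signals of the groups overlapped, since the control cells of array 3 were below the treated cells of arrays 1 and 2, yet the treated cells were the lower on every array. The mean was -0.58 ± 0.28 (SD, n = 4), 1.50-fold lower (limma adjusted P 0.0170, lower on 4 of 4 arrays), from a probe on chromosome 18 (26825456 to 26825515). Neither gene passed without array 2 (limma adjusted P 0.0824 for GALNT12, higher on 3 of 3 arrays, and 0.0513 for GALNT5, lower on 3 of 3) or without array 3 (0.0778 and 0.0618). GALNT5 was at -0.33 with no lowess and at -0.28 with normexp background correction and loess, past the threshold with each.

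The other 7 tested GALNT genes lay between -0.35 (GALNT11, limma adjusted P 0.0926, lower on 3 of 4 arrays) and 0.32 (GALNT16, 0.0617, higher on 4 of 4), with GALNT4 at 0.29 (0.0667, higher on 4 of 4). GALNT1, GALNT2, GALNT7 and GALNT10 were between -0.18 and 0.06. GALNT16 did pass with normexp and loess, with no lowess and without array 1. A further probe, which the files name by a transcript accession that RefSeq assigns to GALNT1, was outside the name rule and is not counted. It read 0.21, 0.30, 0.32 and 0.88 (mean 0.43, limma adjusted P 0.0476, higher on 4 of 4 arrays), while the probe named GALNT1 read 0.01, 0.02, 0.06 and 0.11 (mean 0.05, 0.557). Array 4 was the highest on both GALNT1 probes. GALNT3, GALNT6, GALNT8, GALNT13, GALNT14, GALNT15 and GALNT18 were not tested.

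MGAT enzymes add the N-acetylglucosamine residues from which the branches of N-glycans grow. None of the 3 tested MGAT genes passed limma's threshold, had an unadjusted p under 0.05 (0 genes) or passed an unmoderated test of each gene (0 genes). MGAT2, needed for complex N-glycans, had means of -0.09 and -0.05 on its 2 probes, MGAT4B was at 0.05 and MGAT4A at 0.12. MGAT4A varied from -0.34 to 0.59 between arrays, with treated cells above background on 3 of 4. MGAT4C and MGAT5 were not tested.

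All 7 B4GALT genes, which encode the enzymes that add galactose in beta-1,4 linkage, were tested. 2 of them rose and 1 fell, with a family median of 0.06. B4GALT1, the main galactosyltransferase of N-glycan branches and the catalytic part of lactose synthase, was measured by 3 probes in a row. Their sequences are shown because the 3 probes share bases and so are not independent measurements; capitals mark the bases that a probe shares with a neighbour, 30 at each step. All lie on the minus strand of chromosome 23 on EquCab1 and are written 5′ to 3′, first the one at 39967008 to 39967300, which spans 293 bases and crosses an intron, then those at 39966978 to 39967037 and 39966948 to 39967007.
B4GALT1 probe at base 664: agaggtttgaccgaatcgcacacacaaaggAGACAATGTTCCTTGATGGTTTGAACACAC
B4GALT1 probe at base 694: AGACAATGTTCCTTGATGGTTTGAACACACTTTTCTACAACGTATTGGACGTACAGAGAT
B4GALT1 probe at base 724: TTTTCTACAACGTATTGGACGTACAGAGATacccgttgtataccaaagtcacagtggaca

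On the brightest B4GALT1 probe, at base 664 of the transcript, ratios were 0.48, 0.26, 0.43 and 0.43. Control signals of 387, 417, 413 and 451 stood against HMB signals of 538, 500, 558 and 610. The treated cells of every array were above the control cells of every array, with the smallest ratio on array 2. The mean of 0.40 ± 0.09 (SD, n = 4) is a 1.32-fold rise (limma adjusted P 0.0102, higher on 4 of 4 arrays). The probe at base 694 read 0.58, 0.38, 0.62 and 0.53 (mean 0.53, limma adjusted P 0.00487), and the probe at base 724, which has no base in common with the brightest, read 0.67, 0.48, 0.58 and 0.57 (mean 0.57, 0.00339). B4GALT1 was thus higher on 4 of 4 arrays by each of its 3 probes, and array 2 gave the smallest ratio each time. Without array 3 the brightest probe missed the threshold (limma adjusted P 0.0513, higher on 3 of 3 arrays).

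B4GALT3, which also adds galactose to N-glycan branches, was measured by 5 probes shifted by a few bases, starting at bases 1881 to 1888. Its brightest probe read -0.40, -0.40, -0.31 and -0.31, from control signals of 4800, 4380, 3820 and 4210 and HMB signals of 3640, 3310, 3080 and 3390. Treated cells were below control cells on every array and the groups did not overlap. The mean of -0.35 ± 0.05 (SD, n = 4) is 1.28-fold lower (limma adjusted P 0.0112, lower on 4 of 4 arrays), and the 5 probes, all past the threshold, had means between -0.35 and -0.32. With no lowess the B4GALT3 mean was -0.08 and did not pass, and without array 2 the limma adjusted P was 0.0691 (lower on 3 of 3 arrays).

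B4GALT7 adds the galactose next to xylose in the linker that ties glycosaminoglycan chains to proteoglycans. It had ratios of 0.32, 0.25, 0.31 and 0.32, with control signals of 812, 744, 755 and 855 and HMB signals of 1020, 888, 937 and 1070. Each treated signal was above each control signal. The mean was 0.30 ± 0.03 (SD, n = 4), 1.23-fold higher (limma adjusted P 0.0163, higher on 4 of 4 arrays), from a probe on chromosome 14 (3767373 to 3767432). Without array 2 or array 3 B4GALT7 did not pass (limma adjusted P 0.0769 and 0.0770, higher on 3 of 3 arrays each). With no lowess its mean was 0.46. It also missed with the channels taken as unpaired and with a minimum of 1.3-fold.

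B4GALT5 and B4GALT6, which make lactosylceramide, the base of most gangliosides, did not pass. B4GALT6 read -0.02, -0.36, -0.38 and -0.64 (mean -0.35, limma adjusted P 0.0544, lower on 4 of 4 arrays), near 0 on array 1 and lowest on array 4. It did pass with normexp and loess and without array 1. B4GALT5 was at -0.08, B4GALT2 at 0.06 and B4GALT4 at 0.12. The B3GALT enzymes add galactose in beta-1,3 linkage, and neither of the 2 tested genes passed limma's threshold, with 0 at an unadjusted p under 0.05 and 0 by the unmoderated test. B3GALT6, which adds the galactose after that of B4GALT7 in the proteoglycan linker, was at 0.18 (limma adjusted P 0.169, higher on 3 of 4 arrays), and B3GALT4 at 0.10. B3GALT1, B3GALT2 and B3GALT5 were not tested.

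**Figure D2:**
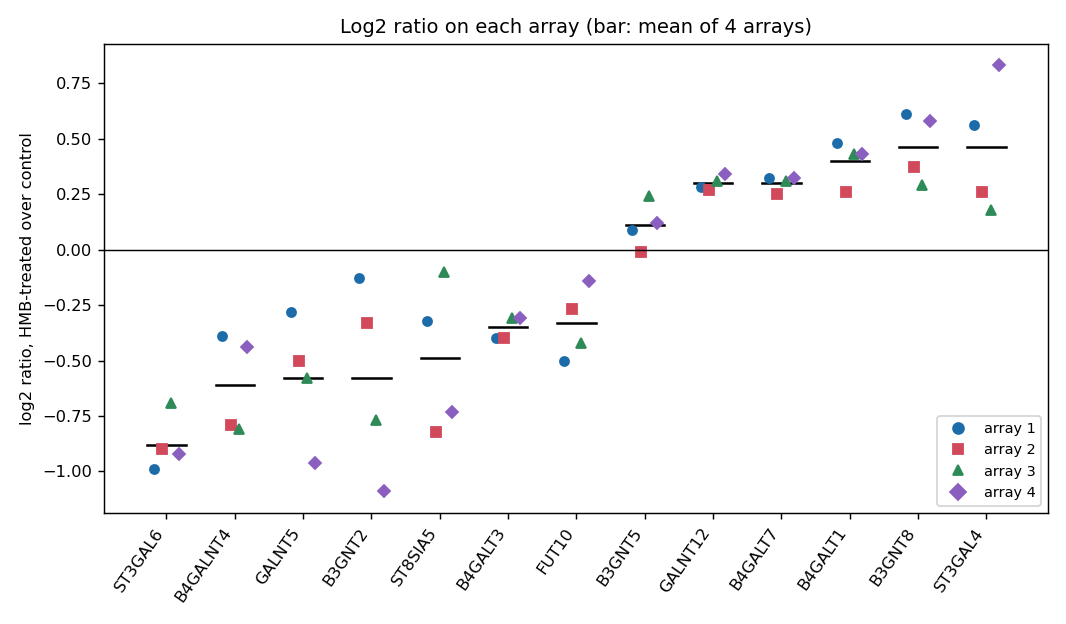
Log2 ratio of HMB-treated over control cells on each of the 4 arrays (symbols) and their mean (bar) for the 12 genes past the threshold and B3GNT5, in the order of their means. B4GALT7 and GALNT12 have 4 ratios within a narrow range (SD 0.03), whereas B3GNT2 runs from -0.13 to -1.09.

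The plot of the ratios on each array shows how unlike the genes were in their spread. The arrays were nearest each other for B4GALT7, GALNT12 and B4GALT3 and furthest apart for B3GNT2 (SD 0.43), ST8SIA5 (0.34) and ST3GAL4 (0.30).

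The B3GNT enzymes add N-acetylglucosamine in beta-1,3 linkage, which lengthens chains into poly-N-acetyllactosamine. Of 7 B3GNT genes 5 were tested, 1 rose and 1 fell. The 5 include B3GNT1, most of whose probes RefSeq assigns to another enzyme, B4GAT1, as given below. B3GNT2, the chief enzyme of this chain growth, read -0.13, -0.33, -0.77 and -1.09, with control signals of 108, 113, 132 and 194 against HMB signals of 98.4, 90.3, 77.8 and 90.9. All treated signals were below all control signals, but array 4, which had the highest control signal, gave by far the lowest ratio and array 1 was near 0. The mean was -0.58 ± 0.43 (SD, n = 4), 1.50-fold lower (limma adjusted P 0.0446, lower on 4 of 4 arrays), from a probe on chromosome 15 (35778321 to 35778380). It did not pass without array 2 (limma adjusted P 0.0759), array 3 (0.147) or array 4 (0.0878), lower on 3 of 3 arrays each time, nor with no lowess, where its mean was -0.36.

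B3GNT8, which can bind B3GNT2 and raise its activity, went the other way, at 0.61, 0.37, 0.29 and 0.58. Its control signals were 58.1, 40.3, 45.7 and 40.4 and its HMB signals 88.5, 52.2, 56.0 and 60.3. Treated cells were the higher on every array, though the control signal of array 1 exceeded the treated signals of arrays 2 and 3. The mean was 0.46 ± 0.15 (SD, n = 4), a 1.38-fold rise (limma adjusted P 0.0112, higher on 4 of 4 arrays), from a probe on chromosome 10 (11945996 to 11946055). It passed without each array in turn, and under normexp and loess with a mean of 0.23, but with no lowess its mean was 0.21 and did not pass. B3GNT8 also missed by the unmoderated test and with the channels taken as unpaired.

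B3GNT5 starts the lacto and neolacto series of glycolipids, and its 2 probes gave different answers. Both are shown because they sit next to each other in the same transcript, on the plus strand of chromosome 19 of EquCab1 (17769882 to 17769941 and 17769952 to 17770011), and share no bases, so that neither sequence, written 5′ to 3′, has capitals.
B3GNT5 probe at base 998: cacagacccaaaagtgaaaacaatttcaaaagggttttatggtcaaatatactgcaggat
B3GNT5 probe at base 1068: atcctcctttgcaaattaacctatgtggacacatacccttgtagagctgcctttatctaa

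The probe at base 1068, brightest by the rule, read 0.09, -0.01, 0.24 and 0.12, from control signals of 32.9, 34.3, 36.3 and 44 and HMB signals of 35.1, 34.2, 43.0 and 47.9. The groups overlapped, and the mean of 0.11 ± 0.10 (SD, n = 4) did not pass (limma adjusted P 0.261, higher on 3 of 4 arrays). On the probe at base 998 ratios were 0.80, 0.84, 0.86 and 0.89, with a mean of 0.85 ± 0.04 (SD, n = 4; limma adjusted P 0.00107, higher on 4 of 4 arrays), though its control signal was above background on only 3 of 4 arrays. That probe was tested through treated cells alone, so the filter favoured a rise. Whether the 2 probes differ was not tested. The mean of both was 0.48, but it includes the probe that the filter favoured, so no call rests on it. B3GNT5 is not among the 12 genes past the threshold. With no lowess the probe at base 1068 had a mean of -0.004.

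The files name B3GNT1 for 5 overlapping probes, 4 of which RefSeq assigns to B4GAT1, an enzyme that primes the laminin-binding glycan of alpha-dystroglycan. The outermost probes are shown, 5′ to 3′, because they have 36 bases in common, in capitals, so that all 5 read nearly the same stretch of the minus strand of chromosome 12 (16742639 to 16742725 in all).
B3GNT1 probe at base 1071: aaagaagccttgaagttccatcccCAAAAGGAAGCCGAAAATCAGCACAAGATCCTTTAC
B3GNT1 probe at base 1095: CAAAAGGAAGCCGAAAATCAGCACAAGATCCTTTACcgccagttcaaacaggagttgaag

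The brightest B3GNT1 probe read 0.09, -0.77, 0.03 and 0.43 (mean -0.06 ± 0.51, SD, n = 4; limma adjusted P 0.85, higher on 3 of 4 arrays). Array 2 alone was low and array 4 was high, and on array 2 the 5 probes lay between -0.77 and -0.68, so the low value was not that of a single spot. B3GNT9 was at 0.22 (limma adjusted P 0.110, higher on 3 of 4 arrays). B3GNT3 and B3GNT4 were not tested.

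**Figure D3:**
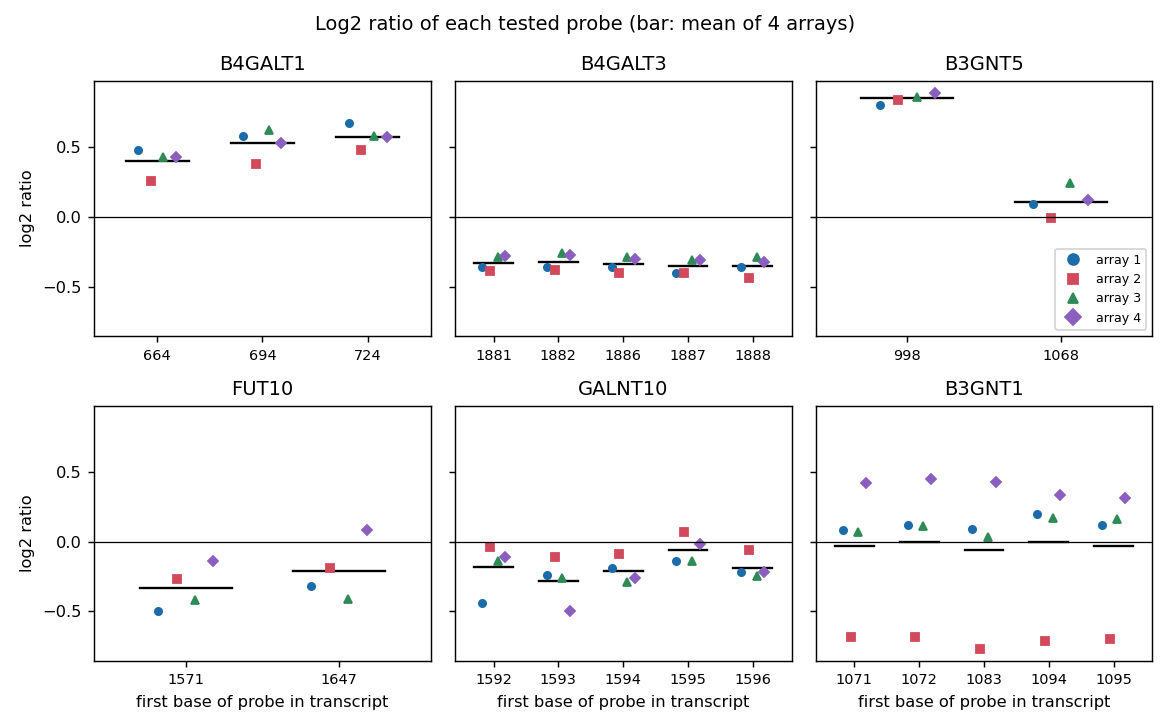
Log2 ratio of each tested probe of 6 genes with several tested probes, on each of the 4 arrays (symbols) with the mean (bar), placed by the first base of the probe in its transcript. Probes of B4GALT1 and of B4GALT3 lie together, the probes of B3GNT5 at bases 998 and 1068 lie apart (means 0.85 and 0.11), and B3GNT1 is low on array 2 at every probe.

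The plot of single probes bears on how far 1 probe can stand for a gene. Of 21 genes with several probes 13 had several tested, and the means of all tested probes had the same sign in 9 of them, while the highest mean of B3GNT1 was 0.00. GALNT2, FUT11 and ST6GAL1 had means of both signs, with 0 of their probes past limma's threshold. GALNT10, with 5 probes shifted by single bases, ranged from -0.28 to -0.06 and did not pass on its brightest probe (limma adjusted P 0.161, lower on 4 of 4 arrays). Closely overlapping probes share their target and count as 1 measurement.

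B4GALNT3 and B4GALNT4 add N-acetylgalactosamine to make LacdiNAc ends. B4GALNT4 was the single tested gene of 3 in its family and read -0.39, -0.79, -0.81 and -0.44. Control signals of 19.8, 19.9, 21.8 and 23.1 were above background on 4 arrays, and HMB signals of 15.1, 11.5, 12.4 and 17.0 on 0. All treated signals were below all control signals, and since the treated cells were at background the fall is a bound, at least 1.34-fold lower with the deposited normalisation (limma adjusted P 0.00923, lower on 4 of 4 arrays). B4GALNT4 was tested through its control channel alone, so a difference in that direction was built into the filter. Its fitted mean of -0.61 moved to -0.33 with no lowess and -0.20 with normexp and loess, past the threshold with each but less than that bound. Both add an offset of 50, larger than its geometric mean signals of 21.1 in control and 13.8 in treated cells. The offset shrinks such a ratio, so those means do not test the bound. B4GALNT2 and B4GALNT3 were not tested.

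Among fucosyltransferases, 3 of 5 genes were tested. FUT10, whose natural acceptors are less well known, had ratios of -0.50, -0.27, -0.42 and -0.14, from control signals of 78.8, 63.0, 94.9 and 81.9 and HMB signals of 55.8, 52.2, 71.2 and 74.5. The groups overlapped, but treated cells were lower on every array, least so on array 4. The mean of -0.33 ± 0.16 (SD, n = 4) is 1.26-fold lower (limma adjusted P 0.0302, lower on 4 of 4 arrays), from a probe on chromosome 27 (10844996 to 10845055). The neighbouring FUT10 probe read -0.32, -0.19, -0.41 and 0.08 and did not pass (mean -0.21, limma adjusted P 0.150, lower on 3 of 4 arrays). FUT10 passed without array 4 but missed without array 1, 2 or 3 (limma adjusted P 0.0723, 0.0961 and 0.122, lower on 3 of 3 arrays each), and its mean was -0.14 with no lowess and -0.16 with normexp and loess, past the threshold with neither. The mean of both FUT10 probes was -0.27 and did not pass. FUT8, which adds the core fucose of N-glycans, was at 0.01 ± 0.10 (SD, n = 4), and 5 overlapping FUT11 probes at -0.09 to 0.01. FUT1 and FUT7 were not tested, nor were the 3 probes that RefSeq assigns to FUT9.

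Sialyltransferases cap chains with sialic acid. Of their 16 genes 9 were tested, 1 rose and 2 fell. ST3GAL6 and ST3GAL4 both add alpha-2,3 sialic acid to lactosamine ends, a step in making selectin ligands, and they went opposite ways. ST3GAL6 read -0.99, -0.90, -0.69 and -0.92, with control signals of 343, 345, 278 and 299 and HMB signals of 172, 185, 172 and 158. Treated cells were far below control cells on all 4 arrays, with no overlap. The mean of -0.88 ± 0.13 (SD, n = 4) is 1.84-fold lower (limma adjusted P 0.00157, lower on 4 of 4 arrays), from a probe on chromosome 19 (52268661 to 52268720). In size it was number 415 of the 15535 tested genes and transcripts, and it passed without each array in turn and under each scaling tried, at -0.64 with no lowess.

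ST3GAL4 read 0.56, 0.26, 0.18 and 0.83, from control signals of 149, 123, 165 and 123 and HMB signals of 220, 147, 187 and 219. Treated cells were higher on each array, most on array 4, but the groups overlapped, as the treated cells of array 2 were below the control cells of arrays 1 and 3. The mean of 0.46 ± 0.30 (SD, n = 4) is a 1.37-fold rise (limma adjusted P 0.0368, higher on 4 of 4 arrays), from a probe on chromosome 7 (31861302 to 31861758). ST3GAL4 did not pass without any one of arrays 1 to 4 (limma adjusted P 0.103, 0.0702, 0.0523 and 0.0657, higher on 3 of 3 arrays each), nor with normexp and loess, where its mean was 0.31. Whether ST3GAL4 and ST3GAL6 differ from each other was not tested.

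ST3GAL5 makes GM3, the first ganglioside after lactosylceramide, and read 0.33, 0.19, 0.04 and 0.32 (mean 0.22, limma adjusted P 0.0782, higher on 4 of 4 arrays), lowest on array 3. With no lowess ST3GAL5 did pass. ST3GAL1 and ST3GAL2, which cap core 1 O-glycans, were at -0.02 and 0.13. ST6GAL1 adds alpha-2,6 sialic acid to N-glycans and had 10 probes on 2 transcripts, of which 2 were tested, at -0.08 and 0.04. It did not pass limma's threshold, nor an unadjusted p of 0.05 or the unmoderated test (0 genes in each case). ST6GALNAC4 and ST6GALNAC6, which work on O-glycans and gangliosides, were at -0.09 and -0.05, again with 0 genes past limma's threshold, 0 at an unadjusted p under 0.05 and 0 by the unmoderated test. ST6GALNAC1 and ST6GALNAC5 were not tested.

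ST8SIA enzymes add sialic acid to sialic acid, in gangliosides or as polysialic acid. ST8SIA5, a ganglioside enzyme, was the single tested gene of 6 and read -0.32, -0.82, -0.10 and -0.73, with control signals of 26.8, 38.2, 31.8 and 37.7 and HMB signals of 21.5, 21.7, 29.7 and 22.7. Arrays 2 and 4 were low, array 3 was near 0, and the treated cells of array 3 were above the control cells of array 1. The mean was -0.49 ± 0.34 (SD, n = 4; limma adjusted P 0.0399, lower on 4 of 4 arrays), from a probe that spans 1181 bases of chromosome 8 (58936378 to 58937558). Treated cells were above background on 3 of 4 arrays, so ST8SIA5 was tested through its control channel alone and the filter favoured a fall. It missed without array 1, 2 or 4 (limma adjusted P 0.0715, 0.133 and 0.107, lower on 3 of 3 arrays each), and with no lowess and with normexp and loess, where its means were -0.20 and -0.09.

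The polysialyltransferases ST8SIA2 and ST8SIA4 were not tested, and neither were ST8SIA1, ST8SIA3 and ST8SIA6. NCAM1, the main carrier of polysialic acid, fell on all 4 arrays, at -0.56, -0.80, -1.06 and -1.19 (mean -0.90 ± 0.28, SD, n = 4; limma adjusted P 0.00449, lower on 4 of 4). A probe of ST8SIA4 read 1.11, 1.20, 1.45 and 2.16 without being above background in either channel, and 1 of 5 probes of ST6GALNAC5 read 1.28, 0.96, 1.45 and 1.63 with treated cells above background on 2 arrays. Neither ratio is a measured fold, and the other 4 ST6GALNAC5 probes, shifted by single bases, were never above background.

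The median base composition was the same for rises and falls. The tested probes of the set had a median GC content of 43.3%, against 41.7% over all tested probes. Among probes past the threshold the median was 45.0% in member probes that rose and 45.0% in member probes that fell, with overlapping probes counted singly. Over all probes past the threshold it was 43.3% in either direction.

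Other steps of glycosylation were counted in 10 lists, with 188 genes of which 147 were on the array and 133 tested. Of these 23 passed the threshold (17.3%, against 22.5% of all tested genes), 13 higher and 10 lower, with a median of 0.00. Without array 2 or array 3 there were 6, where 8.95% and 9.56% of all genes passed, and without array 4 there were 14, where 17.2% did. Counts of single lists under these settings, and with no lowess (24.7% of all genes), are to be read beside those shares. None of the 10 Golgi transporters of sugar nucleotides passed limma's threshold, with 0 at an unadjusted p under 0.05 and 0 by the unmoderated test. Of the 22 tested genes that build and transfer the lipid-linked oligosaccharide of N-glycans 0 passed in limma, 4 had an unadjusted p under 0.05 and 0 passed the unmoderated test, but with no lowess 6 passed, where 24.7% of all genes did.

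**Figure D4:**
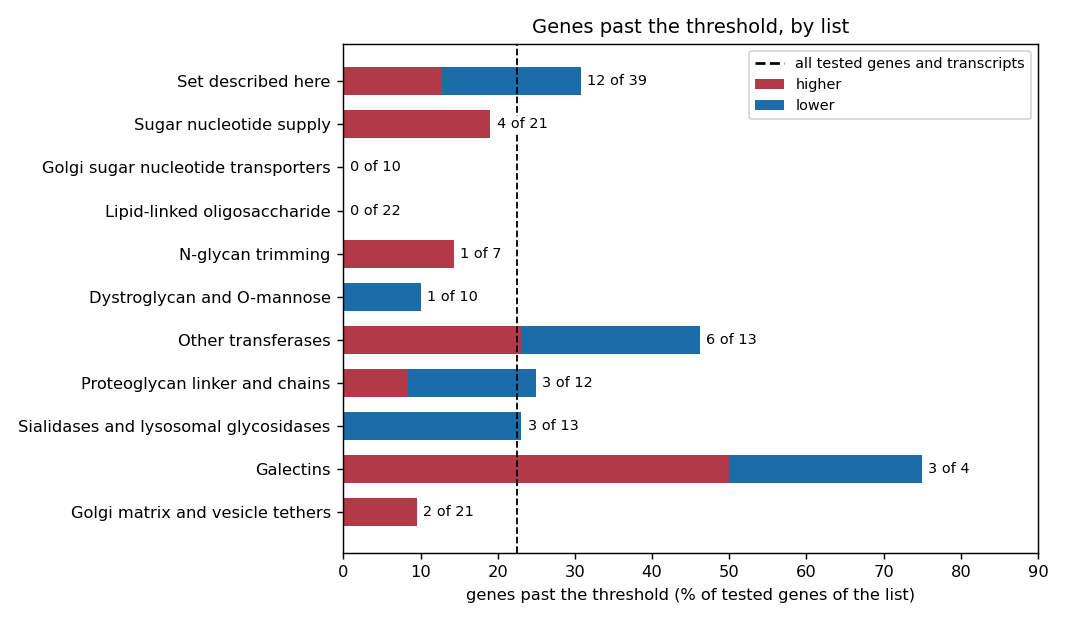
Share of tested genes past the threshold in the set of 39 and in 10 lists of other glycosylation genes, as stacked bars of rises (red) and falls (blue), with the number past the threshold of the number tested. The dashed line is the share among all tested genes and transcripts, 22.5%; sugar nucleotide supply held rises alone (4 of 21) and the sialidases and lysosomal glycosidases falls alone (3 of 13).

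In the plot of shares by list, genes that supply sugar nucleotides had 4 rises and 0 falls among 21 tested (19.0%, against 22.5% of all tested genes) and a median of 0.19. Without arrays 1 to 4 in turn 1, 1, 2 and 3 of them passed, where 17.2%, 8.95%, 9.56% and 17.2% of all genes did, and with no lowess 11, where 24.7% did. UGDH, which makes UDP-glucuronate for glycosaminoglycans, read 0.74, 0.62, 0.37 and 0.34 (mean 0.52 ± 0.20, SD, n = 4; limma adjusted P 0.0119, higher on 4 of 4 arrays). GFPT2, which feeds the hexosamine pathway to UDP-N-acetylglucosamine, read 0.59, 0.35, 0.24 and 0.73 (mean 0.48 ± 0.22; limma adjusted P 0.0184, higher on 4 of 4). Arrays 1 and 2 were the highest for UGDH and arrays 1 and 4 for GFPT2. UGDH missed without array 2 (limma adjusted P 0.0544, higher on 3 of 3 arrays) and GFPT2 without array 1 or 2 (0.0582 and 0.0508).

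Of 13 tested sialidases and lysosomal glycosidases, which remove sugars, 3 fell and 0 rose (23.1%, against 22.5% of all tested genes), with a median of -0.10. By limma 0 passed without array 2 and 0 without array 3, with 1 without array 4 and 1 with no lowess; 5 had an unadjusted p under 0.05 on all arrays and 0 passed the unmoderated test. NEU1, the lysosomal sialidase, read -0.14, -0.43, -0.41 and -0.42 (mean -0.35 ± 0.14, SD, n = 4; limma adjusted P 0.0220, lower on 4 of 4 arrays). CTSA, the protective protein that holds NEU1 in its active complex, read -0.18, -0.44, -0.44 and -0.49 (mean -0.39 ± 0.14; limma adjusted P 0.0167, lower on 4 of 4). Array 1 was nearest 0 for both genes. CTSA missed without array 2 or 3 (limma adjusted P 0.0791 and 0.0736, lower on 3 of 3 arrays) and NEU1 without array 2, 3 or 4 (0.104, 0.0928 and 0.0541). With no lowess their means were -0.07 and -0.16, and neither passed.

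Of the genes that make the O-mannose glycan of dystroglycan 1 of 10 passed and was lower (10.0%, against 22.5% of all tested genes). That gene, LARGE, extends the laminin-binding chain that B4GAT1 primes, and read -0.13, -0.37, -0.37 and -0.63 (mean -0.37 ± 0.20, SD, n = 4; limma adjusted P 0.0310, lower on 4 of 4 arrays). It missed without array 2, 3 or 4 (limma adjusted P 0.106, 0.102 and 0.0588, lower on 3 of 3 arrays). B4GAT1 itself is not among the 10, since its probes carry the name B3GNT1 and are counted with the B3GNT genes. In N-glycan trimming 1 of 7 genes passed (14.3%), the Golgi mannosidase MAN1A1, at 0.31, 0.20, 0.56 and 0.62 (mean 0.42 ± 0.20; limma adjusted P 0.0214, higher on 4 of 4), and it missed without array 3 or 4 (0.0889 and 0.0516).

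Proteoglycan chains are begun on xylose by XYLT enzymes and lengthened by the EXT family, and in this list 1 of 12 genes rose and 2 fell (25.0%, against 22.5% of all tested genes). Only 1 passed without array 2, 3 or 4, or with no lowess. EXTL2 read 0.41, 0.43, 0.37 and 0.79 (mean 0.50 ± 0.19, SD, n = 4; limma adjusted P 0.0125, higher on 4 of 4 arrays) and passed without each array in turn. XYLT2 read -0.12, -0.69, -0.54 and -0.36 (mean -0.42 ± 0.24; limma adjusted P 0.0304, lower on 4 of 4). XYLT2 thus fell and B4GALT7, the next enzyme of the same linker, rose, while B3GALT6 did not pass; the difference between them was not tested. Without array 2, 3 or 4 XYLT2 missed (limma adjusted P 0.115, 0.114 and 0.0618, lower on 3 of 3 arrays), and with no lowess its mean was -0.27 and did not pass.

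Among 13 tested transferases outside the name rule 3 rose and 3 fell (46.2%, against 22.5% of all tested genes), and 2 passed without array 2 and 1 without array 3. B3GALNT1, which makes globoside, read -0.50, -0.54, -0.29 and -1.40 (mean -0.68 ± 0.49, SD, n = 4; limma adjusted P 0.0395, lower on 4 of 4 arrays), by far the lowest on array 4. It missed without array 1, 2 or 3 (limma adjusted P 0.0808, 0.0866 and 0.0556, lower on 3 of 3 arrays). B3GALTL, which extends O-fucose, was above background in treated cells alone and with the deposited normalisation was at least 1.41-fold higher (limma adjusted P 0.0118, higher on 4 of 4), a direction built into the filter. It missed without array 3 (0.0501), with no lowess, where its mean was 0.01, and with normexp and loess, where it was 0.12. Both scalings add an offset of 50, larger than its geometric mean signals of 22.4 in treated and 15.0 in control cells. The offset shrinks such a ratio, so those means do not test the bound.

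Of 4 tested genes for galectins and their ligands, which read galactose-bearing chains, 2 rose and 1 fell (75.0%, against 22.5% of all tested genes), and 1 passed without array 2 or array 3. LGALS3BP, a secreted glycoprotein bound by galectin-3, read -1.26, -1.58, -2.10 and -1.50 (mean -1.61 ± 0.35, SD, n = 4; limma adjusted P 0.00157, lower on 4 of 4 arrays), and passed without each array in turn. LGALS3, galectin-3 itself, read 0.23, 0.33, 0.54 and 0.73 (mean 0.46 ± 0.22; limma adjusted P 0.0203, higher on 4 of 4), and missed without array 2 or 3 (0.0555 and 0.0812). Array 3 was lowest for LGALS3BP and array 4 highest for LGALS3.

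In the Golgi matrix and its vesicle tethers 2 of 21 genes rose and 0 fell (9.52%, against 22.5% of all tested genes). GOLGA1 read 0.46, 0.46, 0.70 and 0.27 (mean 0.47 ± 0.18, SD, n = 4; limma adjusted P 0.0125, higher on 4 of 4 arrays), with control cells above background on 3 of 4 arrays, so that the filter favoured a rise. GORASP2, which helps stack Golgi cisternae, read 0.53, 0.34, 0.17 and 0.23 (mean 0.32 ± 0.16; limma adjusted P 0.0336, higher on 4 of 4). GOLGA1 missed without array 2 (limma adjusted P 0.0528, higher on 3 of 3 arrays) and, at means of 0.05 and 0.16, with no lowess and with normexp and loess, and GORASP2 missed without any one of arrays 1 to 4 (limma adjusted P 0.0660, 0.129, 0.0717 and 0.0517, higher on 3 of 3 arrays).

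The label of the cells was checked against markers. Of 13 myogenic markers on the array 12 were tested, so the cultures did express muscle genes. All 12 were lower in treated cells by limma, where 11.6% of all tested genes were. By the unmoderated test 0 passed, where 2.63% of all genes did. Their median log2 ratio was -0.45, -0.84, -1.07 and -1.29 on arrays 1 to 4. Summed over the list, control signals were 236000, 237000, 258000 and 274000 and HMB signals 172000, 121000, 113000 and 103000, with embryonic myosin (MYH3) the largest part. PAX7 was not found by name and PAX3 was not tested. Without array 2, 3 or 4 there were 7 of 12 past the threshold, where 8.95%, 9.56% and 17.2% of all genes passed. Without array 1 there were 11 (17.2% of all genes), and with no lowess 8 (24.7% of all genes), at a median of -0.39.

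Of 8 tested fibroblast markers 2 rose, PDGFRA (mean 1.53 ± 0.47, SD, n = 4; limma adjusted P 0.00358, higher on 4 of 4 arrays) and FAP (0.42 ± 0.18; 0.0185, higher on 4 of 4), 25.0% against 22.5% of all tested genes. The other 6 did not pass on their brightest probe, with THY1 at -0.10, COL1A2 at -0.20, COL3A1 at -0.21, PDGFRB at -0.01, LUM at 0.01 and DCN at 0.15. By single probe, 2 of 9 passed for COL1A2 (all means between -0.59 and -0.20) and 1 of 2 for DCN (0.15 and 0.39). The median of the 8 markers was 0.00. Their summed signal, mostly COL1A2, had log2 ratios of 0.27, -0.11, -0.13 and -0.47. Without array 1, 2 or 3 FAP missed (limma adjusted P 0.0532, 0.0806 and 0.0752, higher on 3 of 3 arrays). With no lowess 6 of 8 rose, at a median of 0.82. Under that scaling 24.7% of all genes passed, 76.8% of them higher. Of leukocyte markers 3 were tested, 0 passed in limma, 2 had an unadjusted p under 0.05 and 0 passed the unmoderated test, and CD3E and ITGAM were never above background. With no lowess 2 of the 3 leukocyte markers rose, at a median of 0.30, where 24.7% of all genes passed. With normexp and loess 1 rose (21.4% of all genes passed), as did 1 where both channels had to be above background (21.4%). The single tested endothelial marker did not pass (0 genes at an unadjusted p under 0.05 and 0 by the unmoderated test), with KDR, PECAM1, TEK and VWF never above background. No adipocyte marker was tested on all 4 arrays, and ADIPOQ, FABP4 and PPARG were never above background. Without array 4, 1 adipocyte marker was tested and rose, at 0.39, where 17.2% of all genes passed.

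**Figure D5:**
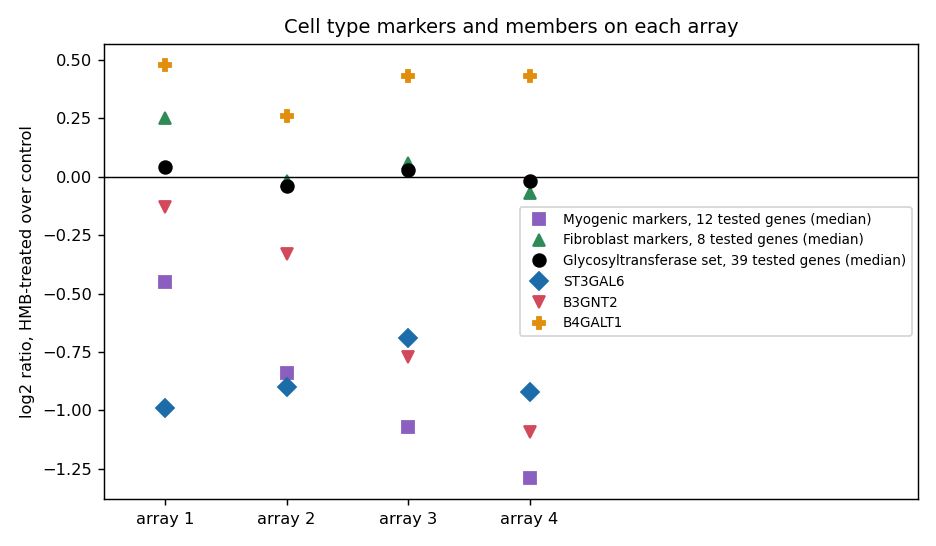
Log2 ratio of HMB-treated over control cells on each of the 4 arrays for the medians of 12 myogenic markers, 8 fibroblast markers and the 39 tested glycosyltransferase genes, and for ST3GAL6, B3GNT2 and B4GALT1. The myogenic median runs from -0.45 on array 1 to -1.29 on array 4 and the median of the glycosyltransferase genes stays between -0.04 and 0.04.

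The plot of markers on each array sets the enzymes beside the muscle genes. B3GNT2, GALNT5, B4GALT6, GALNT7, B3GALT4 and ST6GALNAC4 ranked the 4 arrays in the same order as the myogenic median, 6 of the 39 tested genes (15.4%, against 11.9% of all tested genes), and B4GALT5 and GALNT1 in the opposite order (5.13%, against 10.8%). ST3GAL6, the largest fall of the set, did not follow that order, with its lowest ratio on array 1. These are RNAs of whole cultures, in which fewer cells of a type and less RNA per cell cannot be told apart. The part that the composition of the cultures had in any of these ratios was not tested.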

How the data were processed

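The authors hybridised HMB-treated (Cy5) and control (Cy3) RNA to 4 arrays and deposited, from Feature Extraction 10.10.1.1 per the file headers, raw spot intensity with local background, a processed intensity (background-subtracted, detrended, dye-normalised) and log10 ratios (Cy5 to Cy3) made by linear and lowess normalisation. Also deposited, and used for filtering, were marks of 0 or 1 that set apart saturated, non-uniform and outlying spots and those well above background. The same log10 ratios stand in the series' own deposit. To reach log2, ratios were multiplied by 3.32. Control spots (1417) and marked spots were left out, spots of a probe were averaged, and a probe needed values on at least 3 arrays (2 where an array was left out) and the same channel well above background on all 4. Of 43603 probes 27383 were tested and 16220 were not. The fit was limma 3.58.1 in R 4.3.3 with the package data.table (version 1.17.8; intercept only, empirical Bayes, two-sided, Benjamini-Hochberg). Summaries and figures used Python 3.11.15, numpy 2.4.6, pandas 2.3.3 and matplotlib 3.10.9. With 4 arrays an exact sign-reversal test of 1 gene has 8 outcomes and cannot go below p = 0.125, so none was used. The steps were tested on simulated data.

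Gene names are those of the files, or of RefSeq where the files give an accession or locus number. Values on each array are given for member genes past the threshold and for the 6 genes the study named. They are also given for up to 2 genes of each other glycosylation list, those with the largest ratio past the threshold. B3GALTL is given as a bound only. Fibroblast markers are given by their means, and myogenic markers other than NCAM1 by the list's median and summed signal. GALNT1, B3GNT1, B4GALT6, ST3GAL5, MGAT4A, ST8SIA4, ST6GALNAC5, NCAM1 and other members below the threshold were picked for the text after their values were seen. Members and lists were chosen with earlier results of these data known. A bound on a fold was taken against the lowest signal that the marks call above background. Alternatives changed the normalisation (normexp with an offset of 50 and loess; median centring without lowess; the values of the series' deposit), the test (unmoderated, after the Student test that the study's supplement names; a robust prior with an intensity trend; channels taken as unpaired, with no replicate block; a fold of at least 1.3), the filter (none for dim probes; each channel above background; marked spots included), the value of a gene (averaged over its tested probes) and the arrays (each left out). Median centring without lowess also used normexp with the offset of 50, so it changed the background correction as well. Whether a probe lies in coding sequence was not analysed here, nor were the RT-qPCR data.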

Additional observations from a re-analysis of the deposited data

Results flagged for a closer look

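A single array stood apart from the other 3 in 2 of 39 tested member genes and in 3 of 38 other genes looked at, by the gap to the nearest array over the whole range of the 4; chance gives this in about 1 in 20 genes. MGAT2 was at 0.04 on array 2, where the other arrays were between -0.15 and -0.13. ST6GALNAC4 was at 0.29 on array 1, with the others between -0.25 and -0.16. EXTL2 was at 0.79 on array 4, with the others between 0.37 and 0.43. CTSA was at -0.18 on array 1, with the others between -0.49 and -0.44. NEU1 was at -0.14 on array 1, with the others between -0.43 and -0.41. All values are log2 ratios, and no cause was tested.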

How the results depend on the processing

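Of 193 values of the 13 named members under the alternatives, 135 kept direction and side of the threshold and 56 kept direction but no longer passed. Of the rest, 1 came to pass (B3GNT5, mean of its probes, which includes the probe the filter favoured) and 1 reversed, B3GNT5 with no lowess, at -0.004. The values of the series' deposit were identical to those used, and a change of the test alone leaves a mean ratio as it is. Direction could not change under those alternatives, so the tally is no measure of its stability. ST3GAL6 passed under each alternative, and B3GNT8 and ST3GAL6 passed without each array in turn, as did B4GALNT4, whose direction the filter fixed. Member probes past the threshold, 19, became 11 with no lowess, 8 by the unmoderated test, 6 with unpaired channels, 11 with a minimum of 1.3-fold, and 7 to 18 when an array was left out. Of all genes, 22.5% passed in the main fit, 24.7% with no lowess, 2.63% by the unmoderated test, 7.71% with unpaired channels and 13.6% with that minimum. With an array left out 8.95% to 17.2% did. Member genes past the threshold, 12, became 4 by the unmoderated test, 4 with unpaired channels, 8 with the 1.3-fold minimum, and 4 to 11 when an array was left out. B4GALT3, B4GALT7, FUT10 and GALNT12 missed with that minimum. By the unmoderated test B4GALT3, B4GALT7, GALNT12 and ST3GAL6 passed, and with unpaired channels B4GALNT4, B4GALT1, GALNT12 and ST3GAL6. The median of the members, 0.01, was -0.03 with normexp and loess and 0.07 with no lowess. The 23 genes of other lists, of 133 tested, became 6 to 17 when an array was left out and 31 with no lowess. Of all genes 8.95% to 17.2% and 24.7% passed under those settings. Members of the set outside those 13 came to pass as well. These were B4GALT6 and GALNT16 with normexp and loess and without array 1, and GALNT16 and ST3GAL5 with no lowess. Leaving out an array leaves fewer values for each gene; for the other changes the cause was not tested. Averaging the probes of a gene gives no count of probes, and B4GALNT4 and ST8SIA5 have no value where both channels must be above background. With no filter on dim probes 8 of 64 genes passed (12.5%, against 8.23% of all genes). Among them were ST6GALNAC5 and ST8SIA4, whose signals were at or near background. Only 6 of the 12 genes of the main fit still passed, and B4GALNT4, GALNT5, B3GNT2, ST8SIA5, ST3GAL4 and FUT10 did not. The 25 genes not tested had no channel clear of background on all 4 arrays, so their signal over background limits what can be read of them.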
